A study of Mus musculus with 2 samples.

Results

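The genes described are the 5 NF-κB subunits (*Nfkb1*, *Nfkb2*, *Rel*, *Rela* and *Relb*), the IκB inhibitors *Nfkbia*, *Nfkbib* and *Nfkbie*, the IκB-related coactivator *Bcl3*, and *Tnfaip3*, which encodes the feedback inhibitor A20. They were found as the probes, other than control probes, whose gene name on the array is 1 of these 10 symbols. All 10 had at least 1 probe, 15 probes in all, among 22555 named genes. Long-term hematopoietic stem cells (LT-HSCs) were sorted from the bone marrow of 2-year-old C57BL/6J mice, and their RNA was hybridized to single-colour Agilent mouse arrays, with 1 array for wild-type cells and 1 for p38KO cells. The comparison addresses how loss of p38α, the stress-activated MAP kinase encoded by *Mapk14*, affects expression of inflammatory genes in old LT-HSCs.

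The p38KO mice carried CAG-CreERT2 and floxed *p38α* (p38α flox/flox) and received tamoxifen (TAM) at an age of 50 to 60 weeks. According to the study's methods, the wild-type controls were p38α fl/fl mice of matched age without Cre, which were also given TAM. CAG is a promoter active in most tissues, so the deletion was not limited to HSCs. The sample labels give the sorted cells as CD150+CD48-Flt3-CD34- LSK, the methods add CD41-, and the design description names only CD34- and Flt3- LSK cells. How many mice gave the RNA of an array, and whether they were pooled, is not stated. Mice of both sexes were used in the study.

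NF-κB factors are dimers that bind κB sites in DNA. In unstimulated cells IκB proteins hold most dimers in the cytoplasm. Signals such as TNFα or interleukin-1 activate the IκB kinase (IKK) complex, which marks IκB for destruction and sets the dimers free, whereas the noncanonical route processes the precursor made from *Nfkb2* into a subunit that pairs with RelB. Several of the inhibitors are themselves transcribed from κB sites and shut the response down again, so their transcripts are products of the pathway as well as its brakes. In hematopoiesis the pathway is known for its roles in inflammation, survival and lymphoid differentiation.

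Signals are given as log2 of the scanner signal minus the 75th percentile of the same array, and a difference is p38KO minus wild-type on this log2 scale. The error beside a difference is the scanner software's own signal error for the spots compared. It is an error within an array and not between mice. With 1 array per genotype there is no replicate check and no p-value, and genotype, mouse and array cannot be told apart. A probe was detected when the scanner software called it well above background. All 15 member probes were detected on both arrays, and none was saturated. Over the 17198 genes detected on at least 1 array, each represented by its brightest probe, the median difference was −0.03 with quartiles of −0.38 and 0.33.

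On both arrays 67.9% to 69.0% of probes were detected, and repeated spots of a probe had a median SD of 0.10 on either array. *Mapk14* is covered by a pair of probes. They read 2.34 and 2.08 on the wild-type array and 2.31 and 2.03 on the p38KO array, differences of −0.04 and −0.05, so the targeted transcript was not clearly lower on the p38KO array. The sources used here do not say whether either probe lies in the deleted part. The study also examined the deletion by genomic qPCR, which is not part of these files, and every direction below rests on the labels. The 14 markers of LT-HSCs, among them *Kit*, *Hlf* and *Procr*, were all detected on both arrays. Of these, 13 were lower on the p38KO array, with a median of −0.54. Markers of cells outside the sort gate differed too. The summed linear signal of detected granulocyte markers was 7.21 on the wild-type array and 21.6 on the p38KO array, in units of the 75th percentile. Of these markers (9 of 9), 7 were higher, *S100a8* and *Ltf* among them, and *Elane* and *Prtn3* were lower. *Mmp8*, among the 7, was detected on the p38KO array alone. Both sums rest most on *S100a9*, the brightest, which read 1.91 and 3.92 on the log2 scale. For B cell markers (8 of 9, all higher) the sums were 3.82 and 18.9, a ratio of 4.95 that rests on *Jchain* and is 1.37 without it. Of these 8, 6 were detected on both arrays. *Ms4a1* and *Ebf1* were detected on the p38KO array alone and so entered the count through the array where they read higher. For T and NK cell markers (6 of 9, 5 higher and 1 lower) the sums were 6.69 and 10.2, a ratio of 1.52. The brightest of these, *Cd4*, read 1.86 and 2.60, but a second *Cd4* probe differed by −0.01. For monocyte, macrophage and dendritic cell markers (6 of 9, 3 lower and 3 higher) the ratio was 1.31. It rests mostly on *Itgam*, the brightest, which read 7.50 and 7.92 and whose 3 probes differed by −0.42 to 0.88. For erythroid markers (6 of 7, 2 lower and 4 higher) the ratio was 1.18, with *Hbb-bt* and *Hba-a1* lower. For endothelial and stromal markers (4 of 6, 2 lower and 2 higher, *Cdh5* and *Col1a1* not detected) the ratio was 0.982. By the methods the gate excludes 4 surface proteins, and by the labels all of these but CD41, the product of *Itga2b*. All 4 transcripts, *Cd34*, *Flt3*, *Cd48* and *Itga2b*, were detected on both arrays. Their summed signal ratio was 0.934. At their brightest probes *Cd48* was higher by 1.37 (2.59-fold) and *Flt3* by 0.36, whereas *Cd34* and *Itga2b* differed by −0.15 and −0.37. The sizes depended on the probe. Another *Cd48* probe was higher by only 0.19, the 3 *Flt3* probes differed by −0.07 to 0.88, and another *Cd34* probe differed by −0.997. With the normexp background correction described below, the brightest *Cd48* probe was higher by 0.71. The part of any of these in the differences below was not tested, and in such bulk samples fewer cells of a type and less RNA per cell cannot be told apart.

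The members did not move together. At their brightest probes 6 of 10 were lower on the p38KO array, beside 52.4% of all genes, and 4 were higher, beside 47.6%. Their median difference was −0.04. Only *Nfkbia* was at least 1.5-fold lower, where 15.5% of all genes were, and only *Rel* was at least 1.5-fold higher, where 12.7% were. No member reached 2-fold in either direction, a size passed by 10.8% of all genes (6.67% lower and 4.11% higher). By role, the 5 subunits had a median of 0.16, with 2 lower and 3 higher, and the 5 inhibitors and modulators a median of −0.41, with 4 lower and 1 higher. The brightest probe of *Nfkbib* was the exception among the inhibitors, and its 3 probes disagreed. *Tnfaip3*, *Rela*, *Nfkb1* and *Relb* differed by less than their scanner errors, so these counts by role include genes without a clear direction.

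**Figure D1:**
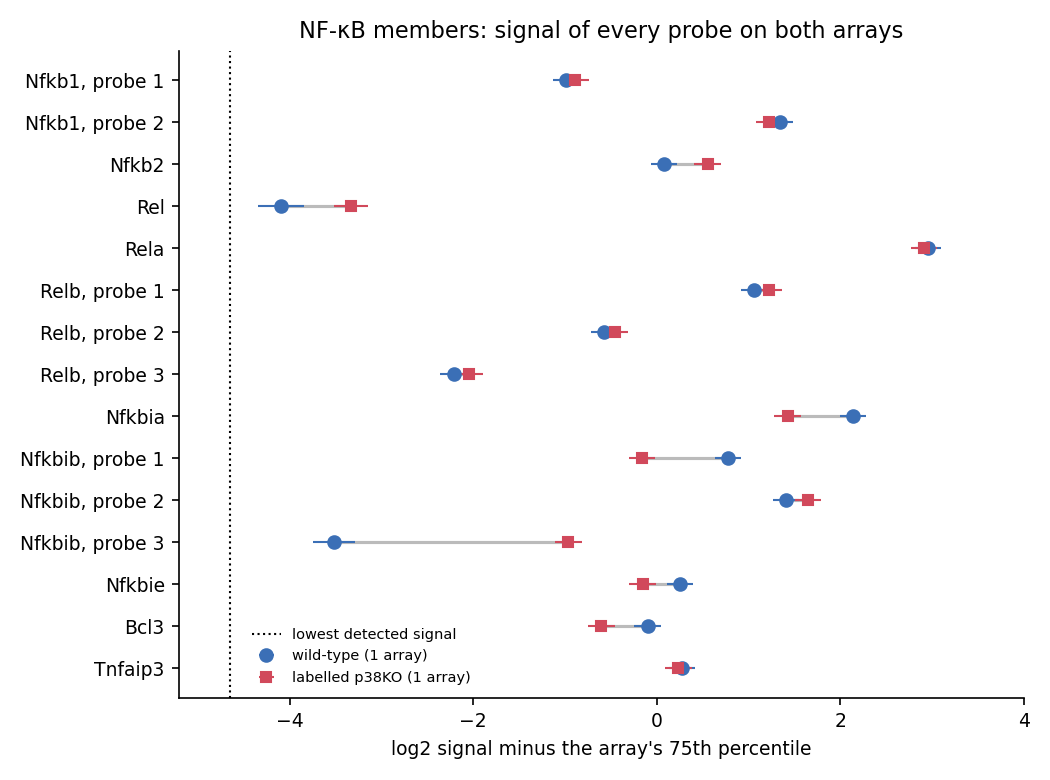
Signal of each of the 15 probes of the 10 members on the wild-type array (circles) and the array labelled p38KO (squares), as log2 signal minus the array's 75th percentile. Horizontal bars are the scanner's signal error, grey lines join the 2 arrays, the dotted line marks −4.65, the higher of the lowest detected signals of the 2 arrays, and probe 1 of a gene is the one nearest its 5′ end. *Rel* and probe 3 of *Nfkbib* lie nearest the dotted line.

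Several members carry κB sequences at their own starts. RefSeq promoter windows of 300 bases (250 before and 50 after the start of transcription, build GRCm38.p6) were available for 8 of the 10 members, *Nfkb1* and *Relb* being the others. The κB consensus, a motif of 10 bases, was searched on both strands with overlapping matches kept. It was found for 6 of these 8 genes, whereas 4.51% of all 32851 windows and 5.14% of genes with a window held it. It was absent from the windows of *Nfkbib* and *Rela*, and in *Bcl3* the match began 3 bases after the start. The stretch that holds the upstream matches is shown for the other 5, because these are the genes whose differences on the arrays can be read beside a κB sequence. Each stretch runs 5′ to 3′ along the gene to the last base before its start, with the matches in capitals.
Nfkb2, chr19:46304678-46304736, plus strand: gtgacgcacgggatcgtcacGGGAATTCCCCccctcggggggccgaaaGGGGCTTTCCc
Rel, chr11:23770970-23771081, minus strand: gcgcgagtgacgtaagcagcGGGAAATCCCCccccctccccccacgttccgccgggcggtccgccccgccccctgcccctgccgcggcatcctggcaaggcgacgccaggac
Nfkbia, chr12:55492648-55492696, minus strand: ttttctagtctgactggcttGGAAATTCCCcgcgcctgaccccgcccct
Nfkbie, chr17:45555574-45555699, plus strand: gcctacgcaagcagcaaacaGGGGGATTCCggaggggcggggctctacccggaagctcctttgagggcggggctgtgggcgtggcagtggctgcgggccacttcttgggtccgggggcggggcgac
Tnfaip3, chr10:19015411-19015555, minus strand: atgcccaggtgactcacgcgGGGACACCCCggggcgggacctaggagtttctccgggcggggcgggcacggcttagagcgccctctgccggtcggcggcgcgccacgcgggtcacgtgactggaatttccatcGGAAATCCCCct
In *Nfkb2* and *Rel* a run of 11 capitals holds a pair of overlapping matches. *Nfkb2* has 3 windows in the table and *Tnfaip3* has 2, and the window with the stretch shown was chosen for its upstream matches. The 6 genes with a match did not share a direction. On the p38KO array *Nfkbia*, *Bcl3*, *Nfkbie* and, by only 0.04, *Tnfaip3* read lower, and *Nfkb2* and *Rel* read higher, over a range from −0.71 to 0.77. A match is a run of letters and not evidence of binding.

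Among the subunits, *Rela* encodes p65, the main activating subunit of the canonical pathway. Its probe (mm9 chr19:5648070-5648129, plus strand) read 2.96 on the wild-type array and 2.91 on the p38KO array. The difference of −0.05 was smaller than its scanner error of 0.20, and it changed sign under 2 of 7 alternative ways of normalizing or background-correcting the signals, over a range from −0.10 to 0.04. No direction is given for *Rela*.

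*Nfkb1* encodes p105 and its product p50, the DNA-binding partner of p65. A pair of probes covers it. The brighter (chr3:135247621-135247680, minus strand) was spotted in duplicate and read 1.29 and 1.40 on the wild-type array against 1.16 and 1.28 on the p38KO array. The duplicate spots of the arrays did not overlap, but the higher p38KO spot lay just below the lower wild-type spot. The mean difference was −0.12 with an error of 0.20. The other probe (chr3:135254550-135254609) read −0.98 and −0.89, a difference of 0.10 in the opposite direction with an error of 0.21. Neither probe moved beyond its error.

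*Relb* encodes the partner of the *Nfkb2* product in the noncanonical pathway. Its 3 probes read 1.06 and 1.23 (chr7:20203058-20203117), −0.57 and −0.45 (chr7:20191773-20191832), and −2.21 and −2.04 (chr7:20191722-20191781, all on the minus strand), the wild-type array first in each. The last pair of probes overlaps by 9 bases. Each probe was slightly higher on the p38KO array, by 0.16, 0.11 and 0.17, and each difference lay within its error of 0.20 to 0.22. The 3 differences spanned 0.05, and only 0.902% of the 776 genes with 3 probes detected on both arrays had probes that lay so close together. Of the 3 members with several probes, *Relb* had those that differed least.

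*Nfkb2* encodes p100, which acts as an inhibitor until it is processed to the p52 subunit. Its single probe (chr19:46386146-46386285, plus strand) read 0.08 on the wild-type array and 0.56 on the p38KO array. The signal was thus 1.39-fold higher, a difference of 0.48 with an error of 0.20, and 17.1% of all genes were at least as far up. Under the alternatives the difference ranged from 0.35 to 0.52. The lower end came from normexp, a background correction whose offset of 50 shrinks the differences of dim probes by construction.

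*Rel* encodes c-Rel, a subunit best known from lymphocytes. Its probe (minus strand, with only the 15 bases chr11:23641729-23641743 given as its position) read −4.09 on the wild-type array and −3.33 on the p38KO array. At 1.70-fold, this was the furthest up of the members at their brightest probes, and 7.69% of all genes were at least as far up. The wild-type signal lay only 0.56 above the lowest detected signal of its array. The 1000 genes of nearest brightness had quartiles of −0.56 and 0.64, so differences of this size were frequent at this level. The error of the difference was 0.31, and with normexp the difference was 0.27.

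**Figure D2:**
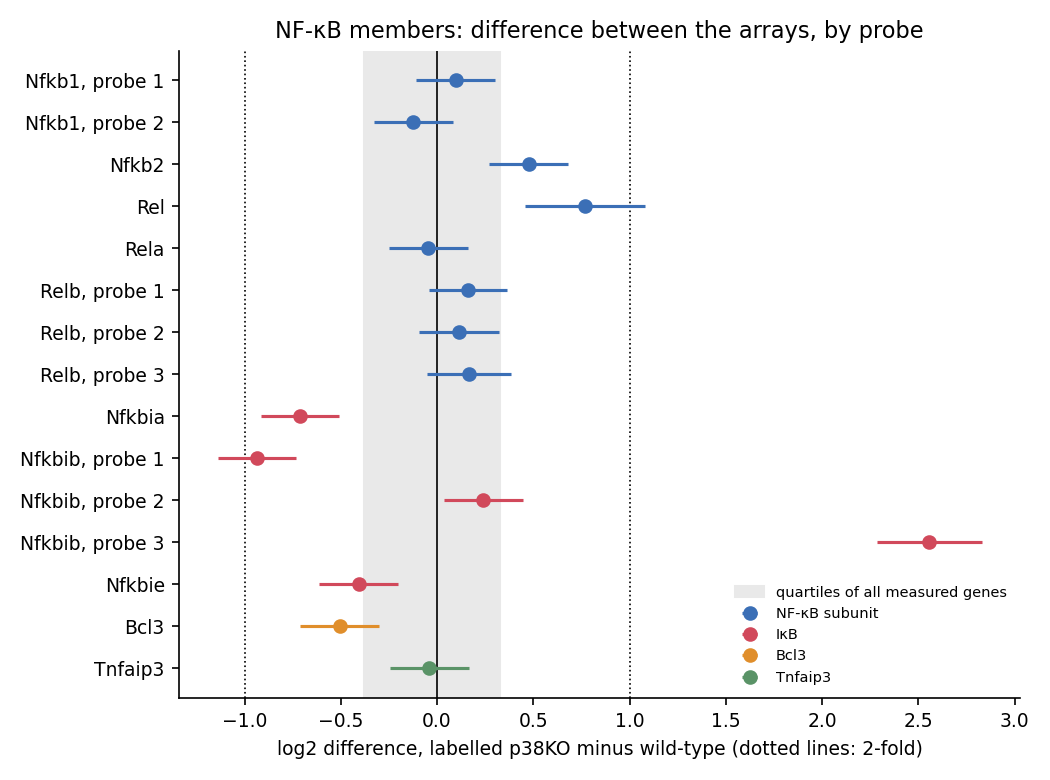
Log2 difference, p38KO minus wild-type, for each of the 15 member probes, coloured by role, with the scanner error of the difference as bars. The grey band spans the quartiles of all 17198 genes (−0.38 and 0.33) and the dotted lines mark 2-fold. Subunit probes lie between −0.12 and 0.77, *Nfkbia* lies at −0.71, and the *Nfkbib* probes range from −0.94 to 2.56.

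*Nfkbia* encodes IκBα, the inhibitor that is resynthesized fastest after NF-κB activation and the transcript most often used as a readout of the pathway. Its probe read 2.14 on the wild-type array and 1.43 on the p38KO array. The signal was 1.64-fold lower, a difference of −0.71, which was 3.49 times its error of 0.20. Of all genes 11.7% were at least as far down, and the 1000 genes of nearest brightness had quartiles of −0.35 and 0.17. Over the 7 alternatives the difference stayed between −0.71 and −0.66, and it was −0.69 with normexp. The probe is shown because this gene was the furthest down of the members at their brightest probes. It lies on the minus strand of chr12 (mm9), and its 60 bases are spread over 496 bases of the genome, so it crosses a splice junction.
Nfkbia probe, chr12:56590945-56591440: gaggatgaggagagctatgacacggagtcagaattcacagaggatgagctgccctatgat

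*Nfkbib* encodes IκBβ, which is degraded and remade more slowly than IκBα. Its 3 probes, all on the minus strand of chr7, gave 3 different answers. Probe 2, the brightest, lies at chr7:29544160-29544219 and read 1.41 on the wild-type array and 1.65 on the p38KO array, a difference of 0.24 with an error of 0.20. Probe 1, nearest the 5′ end, has its 60 bases spread over 1396 bases (chr7:29545252-29546647), so it crosses a splice junction. It read 0.78 and −0.16, a 1.91-fold lower signal on the p38KO array (difference −0.94, error 0.20), and 9.63% of the probes detected on at least 1 array were at least as far down.
Nfkbib probe 1, chr7:29545252-29546647: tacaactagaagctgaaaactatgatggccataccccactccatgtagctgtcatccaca
Nfkbib probe 2, chr7:29544160-29544219: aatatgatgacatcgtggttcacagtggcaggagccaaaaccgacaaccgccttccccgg
These are shown because the array design lists the same pair of Ensembl transcripts for both, yet the readings went in opposite directions. Probe 3, nearest the 3′ end (chr7:29543270-29543329), is listed for only 1 of these transcripts. It read −3.52 on the wild-type array and −0.96 on the p38KO array. That difference of 2.56 (5.88-fold higher, error 0.27) was the largest of any member probe, and 1.14% of the 40413 probes detected on at least 1 array were at least as far up. With normexp the same probe was higher by 0.90.

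The differences of the *Nfkbib* probes spanned 3.49 on the log2 scale. Of the 4546 genes with at least 2 probes detected on both arrays, 0.264% had probes that spread as widely, and of the 776 genes with 3 such probes 0.387% did. Their median spans were 0.50 and 0.77. A gene with 1 probe at least 1.5-fold lower and another at least 1.5-fold higher was less rare, at 3.61% of the 4546. In the RefSeq annotation of GRCm38.p6 the 3′ end of *Nfkbib* overlaps the neighbouring gene *Ccer2*, whose own probe (chr7:29542118-29542177, plus strand) read −2.84 and −3.22, a difference of −0.37. No direction is given for *Nfkbib* as a gene, since the sign depends on the probe.

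**Figure D3:**
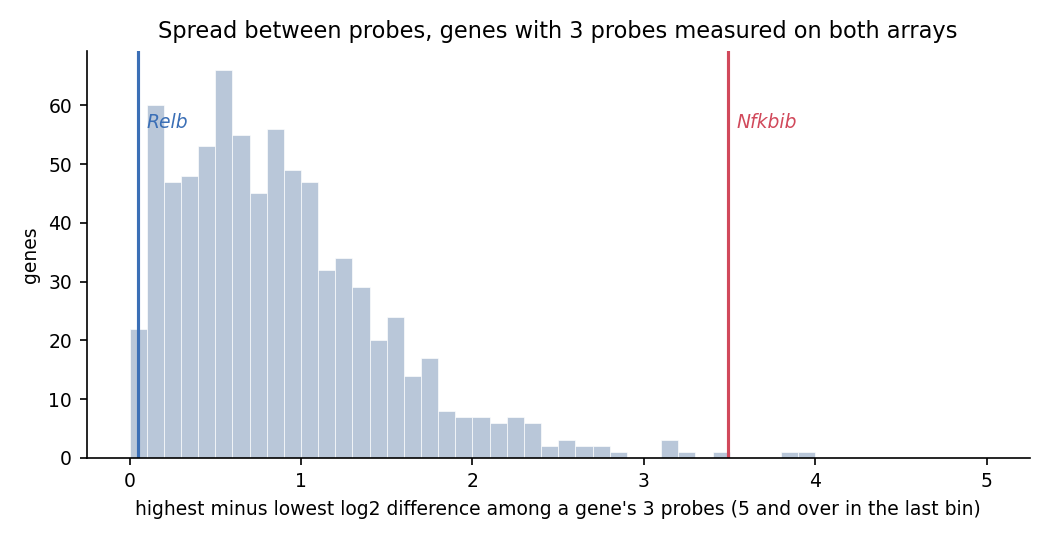
Number of genes (vertical axis) by the span between the highest and the lowest log2 difference of their 3 probes (horizontal axis), for the 776 genes with 3 probes detected on both arrays. Vertical lines mark *Relb* at 0.05 and *Nfkbib* at 3.49, beside a median of 0.77.

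*Nfkbie* encodes IκBε, a further IκB that NF-κB itself induces. Its probe (chr17:45700000-45700059, plus strand) read 0.25 on the wild-type array and −0.15 on the p38KO array. The signal was 1.32-fold lower, a difference of −0.41 with an error of 0.21, and 23.4% of all genes were at least as far down. The range under the alternatives was −0.41 to −0.26.

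*Bcl3* encodes a nuclear member of the IκB family that binds p50 and p52 dimers and can activate transcription with them. Its probe (chr7:20393826-20393885, minus strand) read −0.10 and −0.60, so the signal was 1.42-fold lower on the p38KO array. The array design lists no Ensembl transcript for this probe. The difference of −0.51 was 2.46 times its error, and 18.6% of all genes were at least as far down. It ranged from −0.52 to −0.34 under the alternatives.

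*Tnfaip3* encodes A20, a ubiquitin-editing enzyme that switches off signalling from TNF and Toll-like receptors. Its probe (chr10:18720776-18720835, minus strand) read 0.28 on the wild-type array and 0.24 on the p38KO array. The difference of −0.04 was well within its error of 0.20 and changed sign under 1 of the 7 alternatives, so no direction is given. The lower signals of *Nfkbia*, *Nfkbie* and *Bcl3* were thus not accompanied by a difference beyond the error in *Tnfaip3*.

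**Figure D4:**
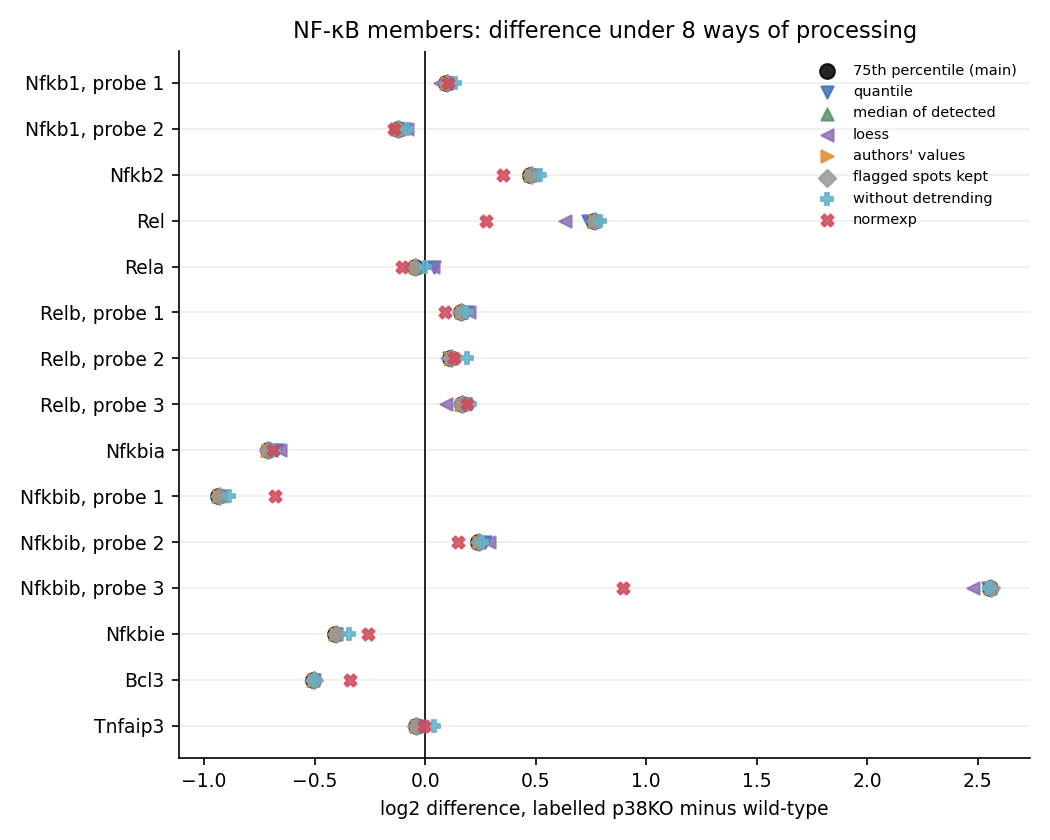
Log2 difference, p38KO minus wild-type, of the 15 member probes as reported (black circles) and under 7 alternatives of normalization, background correction or signal column. *Nfkbia* stays between −0.71 and −0.66, whereas normexp (crosses) takes *Rel* from 0.77 to 0.27 and *Nfkbib* probe 3 from 2.56 to 0.90.

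The 46 other genes of the pathway, from the kinases to the ubiquitin enzymes, were all detected on at least 1 array, and 45 on both. On the p38KO array 29 were lower and 17 higher (63.0% and 37.0%, beside 52.4% and 47.6% of all genes), with a median of −0.09. At least 1.5-fold differences were found for 6 genes that were lower and 1 that was higher, 13.0% and 2.17% of the list, where the shares of all genes were 15.5% and 12.7%. Furthest down among genes detected on both arrays were *Ikbkg*, *Tnip3*, *Birc3* and *Cyld*.

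*Ikbkg* encodes NEMO, the regulatory subunit of IKK. It read −0.97 on the wild-type array and −1.94 on the p38KO array, a difference of −0.96 that became −0.44 with normexp. A second *Ikbkg* probe differed by −0.34. The catalytic subunits, named here after their values were seen, were not lower: *Chuk* (IKKα) was higher by 0.32 and *Ikbkb* (IKKβ) by 0.11. *Tnip3*, which encodes an A20-binding inhibitor, read 2.63 and 1.80, a difference of −0.84 (−0.83 with normexp). *Birc3*, which encodes the ubiquitin ligase cIAP2 and is itself an NF-κB target, read −0.99 and −1.71, a difference of −0.72 (−0.31 with normexp). *Cyld*, which encodes a deubiquitinase that restrains the pathway, read −0.34 and −1.02, a difference of −0.68 (−0.42 with normexp).

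The other deubiquitinases of the list were lower too, so that 3 of 3 were, under each alternative that measured them. The authors' values covered only 2 of these. The member *Tnfaip3*, whose product also edits ubiquitin, was not in this group and differed by −0.04. *Otud7b*, which removes ubiquitin from TRAF3, was detected on the wild-type array alone and was at least 6.10-fold lower on the p38KO array. It thus entered the count through the array where it read higher. Of 7 partners and cofactors of A20, 5 were lower and 2 higher (6 and 1 with normexp), with a median of −0.24. Of 9 receptor adaptors and ubiquitin enzymes acting with them, the TRAF proteins among them, 6 were lower and 3 higher, with a median of −0.06. That last split was 5 to 4 with normexp and 4 to 5 without the correction for trends across the array. The 27 genes of the 7 other roles, among them the IKK kinases and the linear ubiquitin ligase, split into 15 lower and 12 higher, with medians between −0.13 and 0.12. These groupings by role were made after the values were seen, and their counts are to be read beside the 52.4% of all genes that were lower.

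The pathway genes furthest up differed by less. *Nkiras1*, which encodes a Ras-like protein that slows the degradation of IκBβ, read −1.70 and −1.08, a difference of 0.62 (0.36 with normexp). *Btrc*, which encodes the ubiquitin ligase subunit that recognizes phosphorylated IκB, read −0.51 and −0.04, a difference of 0.46 (0.34 with normexp). *Nkrf*, which encodes a repressor at some κB promoters, was dim, at −2.04 on the wild-type array and −1.67 on the p38KO array, a difference of 0.37 (0.25 with normexp).

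Textbook target genes spread more widely than the members. Of 60 listed, 47 were detected on at least 1 array and 42 on both. On the p38KO array 28 were lower and 19 higher (59.6% and 40.4%), with a median of −0.25. At least 1.5-fold, 13 were lower and 11 higher, or 27.7% and 23.4% of those detected, where 15.5% and 12.7% of all genes were. At least 2-fold, 6 were lower and 5 higher, or 12.8% and 10.6%, where 6.67% and 4.11% of all genes were. The counts of higher genes include *Tnf* and *Il6*, which were detected on the p38KO array alone. Several targets were dim, and no comparison with genes of equal brightness was made, so the wider spread is not read as particular to targets. The median was not stable, as it was 0.016 with normexp and −0.10 without a filter on dim probes.

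The larger differences ran in both directions. *Cxcl10*, a chemokine induced by interferon and TNFα, read −1.75 on the wild-type array and −4.14 on the p38KO array, a difference of −2.39. It was −0.39 with normexp, and a dimmer probe of the same gene was higher by 0.85. *Ier3*, an immediate early gene tied to survival, read 1.48 and −0.34, a difference of −1.82 (−1.46 with normexp). *Pim1*, which encodes a survival kinase, read 0.03 and −1.25, a difference of −1.29 (−0.80 with normexp). *Csf1*, which encodes the macrophage growth factor M-CSF, read −0.55 and −1.78, a difference of −1.22 (−0.57 with normexp).

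On the other side, *Irf4*, which encodes a lymphoid transcription factor, read −3.17 and −1.72, a difference of 1.45 (0.52 with normexp). *Cxcl5*, a neutrophil chemokine, read −1.39 and −0.28, a difference of 1.11 (0.68 with normexp). *Ccl5*, a T cell chemokine, read 0.68 and 1.75, a difference of 1.07 (0.90 with normexp). *Cflar*, which encodes the caspase-8 inhibitor c-FLIP, was higher by 0.95 at its brightest probe, but its 4 probes ranged from −0.81 to 0.95.

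Several cytokine genes crossed the detection limit of the arrays. *Tnf*, *Il6*, *Cxcl2* and *Cxcl1* were detected on the p38KO array alone, where they were at least 7.03-fold, 2.03-fold, 1.98-fold and 1.14-fold higher. *Lta*, which encodes lymphotoxin-α, was detected on the wild-type array alone and was at least 1.88-fold lower on the p38KO array. Roles within this list were assigned after the values were seen, so their counts are descriptions, to be read beside the 52.4% of all genes that were lower and the 47.6% that were higher. Of the 14 cytokine and chemokine genes detected, 10 were higher and 4 lower on the p38KO array, with a median of 0.40. With normexp 11 were higher and 3 lower, with a median of 0.24. These counts include the genes above detected on 1 array alone, which entered through the array where they read higher. The authors' normalized values covered the 9 genes detected on both arrays. Of those 9, 6 were higher and 3 lower, with a median of 0.32.

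Of 9 early response, growth and transcription factor genes, 8 were lower and 1 higher, with a median of −0.37 (7 and 2 with normexp, median −0.30). Of the 9 enzymes and other products detected, again 8 were lower and 1 higher, with a median of −0.49 (7 and 2 with normexp, median −0.35). Of 10 adhesion molecules and surface receptors, 5 were lower and 5 higher (3 and 7 with normexp), and of 5 survival genes 3 were lower and 2 higher. Differences between these roles were not tested.

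**Figure D5:**
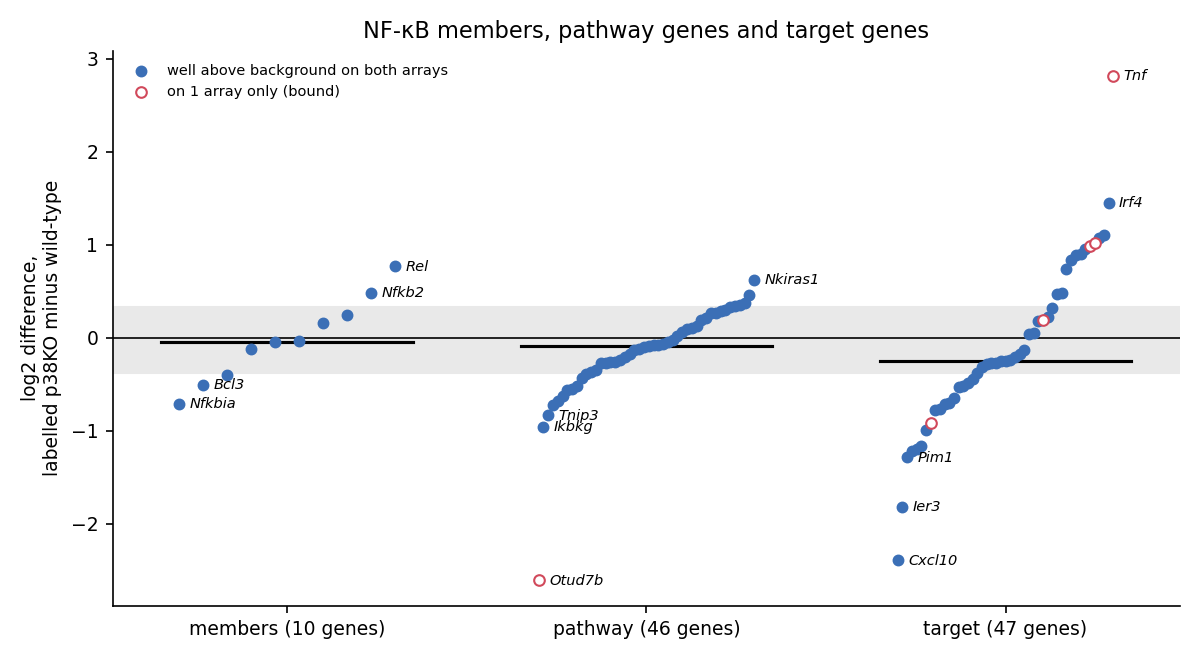
Log2 difference, p38KO minus wild-type, of each measured gene (points, ordered by value) for the 10 members, the 46 pathway genes and the 47 target genes, each at its brightest probe. Open points were detected on 1 array and show a bound, horizontal lines are the medians (−0.04, −0.09 and −0.25), and the grey band spans the quartiles of all genes. At these probes the members lie within 2-fold and 11 targets lie beyond it, *Tnf* and *Il6* among them as bounds. Of all genes 10.8% were at least 2-fold changed.

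The κB consensus was also sought in the promoter windows of both lists. Of 32 pathway genes with a window, 8 held a match, of which 7 were lower and 1 higher, with a median of −0.25. Of the 24 without a match, 17 were lower, with a median of −0.13. Of 36 target genes with a window, 12 held a match, of which 8 were lower and 4 higher, with a median of −0.29. Of the 24 targets without a match, 15 were lower, with a median of −0.27. For comparison, 52.4% of all genes were lower, and 5.14% of all genes with a window held a match. Whether a match goes with a lower signal was not tested.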

How the data were processed

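The authors deposited scanner intensity values for 62976 spots per array, from Agilent Feature Extraction 11.5.1.1 per the labels. The software had subtracted background and removed spatial trends, with no scaling between arrays. A deposited value table on the log2 scale covers 35795 probes and was found to be the same signal less 1 constant per array, 7.16 for wild-type and 6.84 for p38KO, near the 75th percentiles. RNA extraction, hybridization and normalization were outsourced. Control spots and outlier spots (168 on the wild-type array and 124 on the p38KO array) were left out, the log2 signals of a probe's spots were averaged, and each array's 75th percentile was subtracted. The brightest probe among those well above background on at least 1 array stood for a gene. Where a gene was not well above background on 1 array, its signal there was set no lower than the dimmest detected probe, and its fold is a bound. Member probes were taken by the gene name of the array design. For the whole array, that name, its transcript accession or an older symbol was matched to RefSeq, which named 31778 of 55662 probes (57.1%). Probe coordinates are those of the design (mm9), and promoter sequences are from RefSeq (GRCm38.p6).

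With 1 array per group no test was run. Values were described beside those of all 17198 genes, and called means at least 1.5-fold or 2-fold. The number of arrays limits the precision. Named are all members, the 4 genes furthest up and the 4 furthest down of the pathway and target lists among genes measured on both arrays, genes measured on 1 array only, *Mapk14*, and the markers and other genes said to have been named after their values were seen; *Ccer2* was added as the neighbour of *Nfkbib*. A gene that this rule names is not reported here. The members and lists were chosen with earlier results of these data known. Alternatives were a loess of the difference on brightness (span 0.3), quantile normalization, normexp (offset 50), a median centring over detected probes, the authors' own values, flagged spots kept, the signal without correction for trends, other filters on dim probes, no floor, and averaging over the probes of a gene. The calculations were tested on simulated data. The tools were limma 3.58.1 in R 4.3.3, and numpy 2.4.6, statsmodels 0.14.6, pandas 2.3.3 and matplotlib 3.10.9 in Python 3.11.15.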

Additional observations from a re-analysis of the deposited data

How the results depend on the processing

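Over 11 alternatives the median difference of the members ranged from −0.05 to 0.02, 5 or 6 of the 10 read lower on the p38KO array, and none reached 2-fold. The number of members at least 1.5-fold changed was 2 as reported, 1 with normexp background correction, where *Rel* no longer passed, and 3 with the mean over a gene's probes. The median of the pathway list ranged from −0.19 to −0.06. The median of the target list was −0.25 as reported, −0.10 without a filter on dim probes and 0.016 with normexp, whose offset shrinks the differences of dim probes by construction. No member, pathway or target gene that was at least 1.5-fold apart and detected on both arrays changed its direction at its brightest probe. Running the alternatives on single genes of the lists, and on their groupings by role, was chosen after seeing the data. No paired analysis was possible because each group has 1 array and the labels carry no shared replicate number, and for the same reason no replicate could be left out. Signal over background limits *Rel*, the third probe of *Nfkbib* and the cytokine genes detected on 1 array only.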
